A study of Mus musculus with 20 samples.

Results

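The genes described here are the myogenic regulatory factors of skeletal muscle and 2 genes that act on them, measured in a fast muscle of the mouse hindlimb, the extensor digitorum longus (EDL). The 6 members, chosen with earlier results of these data known, are Myod1, Myog, Myf5, Myf6, Pax7 and Dach2. They were taken by gene name from the 27376 gene names on the array. They are read by 8 probes of 60 bases, printed as 35 spots on each array.

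Myod1, Myf5, Myog and Myf6 encode the basic helix-loop-helix transcription factors of the muscle lineage. They pair with E proteins and bind E-boxes in the promoters of muscle genes. Myf5 and MyoD commit cells to the lineage, myogenin drives their differentiation, and Myf6 (also called MRF4) is the family member that stays abundant in adult fibres, whereas Pax7 marks the satellite cells, the stem cells of muscle. Dach2 is a corepressor of Myog in innervated muscle. After denervation, HDAC4, a class IIa histone deacetylase, represses Dach2, which releases Myog and with it the acetylcholine receptor genes.

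Total RNA of 20 EDL muscles from 10 male C57Bl6 mice, 8 weeks old, was hybridised to 1-colour Agilent arrays, 1 muscle to an array, in 4 groups of 5. Every muscle had received recombinant adeno-associated virus serotype 6 (rAAV6), injected into both compartments of the lower leg at 30 µL per injection. Left legs were given a vector with no insert. Right legs were given 2.5e+10 genomes each of vectors for D832N HDAC4 and D861N HDAC5, 2 mutant deacetylases called dnHDAC4/5 here. After 4 weeks, 5 animals were given Scriptaid, a histone deacetylase inhibitor, and 5 were given vehicle (DMSO) by intraperitoneal injection. In vehicle animals the empty-vector legs are EV and the dnHDAC4/5 legs HV. In Scriptaid animals they are ES and HS in the same order, and the same number in EV and HV, or in ES and HS, is the same animal. The titles of the ES samples name the vehicle, whereas their descriptions, treatments and animals name Scriptaid, which was followed. The Scriptaid dose, the time to collection and the promoter of the vectors are not given in the sources used here. The vector's effect cannot be told apart from leg side, nor from the place of the array on its slide, since both were fixed for each group.

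A level is the log2 intensity of a probe minus the log2 of the 75th percentile of its array, so that 0 marks a spot brighter than 75% of the others. The 75th percentile lay between 248 and 608 intensity units, and 51.7% to 61.3% of spots were well above background. Spots in the outer columns and rows of the array, called edge spots here, stood apart in HS. Among them, 2.57% to 4.77% lay more than 3 log2 units below their probe's median in the 5 HS arrays, against 0.026% to 1.02% in the other 15 arrays. Values that rest on edge spots are therefore also given without them. The EDL's fast myosin Myh4 had mean levels of 6.99 in EV, 7.13 in HV, 6.99 in ES and 7.04 in HS. Hdac4, the endogenous counterpart of a delivered gene, had a mean of 0.95 ± 0.23 (SD, n = 5) in EV, 1.24 ± 0.23 (n = 4) in HV, 0.95 ± 0.32 (n = 5) in ES and 1.24 ± 0.56 (n = 5) in HS. Its difference between the legs, averaged over vehicle and Scriptaid animals, was 0.29 with a standard error (SE) of 0.16 (limma, adjusted p = 0.525). Hdac5, read by an edge probe, differed by -0.01 (limma, adjusted p = 0.989). Whether these probes match the vectors' transcripts was not tested.

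The last 30 bases of each member's probe show which transcript ends were measured. Capitals in the Myf5 probe mark AATAAA, the letters of a polyadenylation signal. Coordinates are those of the array files, which name no genome build.
Myod1, chr7:53633956-53634015, plus strand: gtttgtttgttttttcatgcggctcacagc
Myog, chr1:136188874-136188933, plus strand: tgtttattgttttgtgtgttgtttgtaaag
Myf5, chr10:106919974-106920033, minus strand: aaatgtactattattatcAATAAAatattt
Myf6, chr10:106930237-106930296, minus strand: gaaagtccttcgccttggggcttttattat
Pax7, chr4:139294364-139294423, minus strand: tcatgcttttgtgaatctgtctgctttgat
Dach2, probe A_51_P126167, chrX:110949100-110949159: agttatttcagttgtgtttatcagcaaagc
Dach2, probe A_51_P423911, chrX:110948513-110948572: ttgaaaactagtctccatatggtgtgcacg
Dach2, probe A_52_P247559, chrX:110946868-110946927: ctaattagctgtttcctattcctaatgatg

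The 60-base Myf5 probe is 15% G and C, and 44 of the 41174 probes of that length on the array are at or below this share. The Myod1, Myog and Myf5 probes are each printed 10 times. Myf6 and Pax7 have 1 spot each. The Myf5 and Myf6 probes lie near each other on chromosome 10, where the genes are neighbours. The Dach2 probes have 1 spot each as well: A_51_P126167 lies in the top edge, A_51_P423911 in the right edge, and A_52_P247559 in the interior of the array. The starts of the 3 Dach2 probes are 587, 1645 and 2232 bases apart.

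The Myog promoter is shown because Myog is the member on which both MyoD and Dach2 are known to act. It is the 250 bases before the gene's start in RefSeq (GRCm38.p6, chr1:134289754-134290003, plus strand). Capitals mark 2 E-boxes, CACATG and CAGTTG, searched as CANNTG, a pattern that reads the same on both strands.
Myog promoter: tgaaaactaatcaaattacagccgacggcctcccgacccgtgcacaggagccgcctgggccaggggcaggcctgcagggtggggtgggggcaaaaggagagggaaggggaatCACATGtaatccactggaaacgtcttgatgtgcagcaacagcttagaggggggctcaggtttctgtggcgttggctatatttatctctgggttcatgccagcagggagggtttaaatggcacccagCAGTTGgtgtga
The E-boxes begin at positions -138 and -12 from the start. Of 32544 promoters of the same length, 66.2% hold an E-box and 31.7% hold 2 or more. The promoter entries of Myf5 and Pax7 hold no E-box, and of 2 entries for Dach2 the one holds CACATG once and the other no E-box. Such matches of letters describe the sequence and are not evidence of binding.

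Of the 4 factors, Myod1, Myog and Myf6 were measured in every muscle and Myf5 in none. Myf5 was not well above background on any of the 20 arrays, with group means of -6.20 ± 0.40 in EV, -6.32 ± 0.13 in HV, -6.43 ± 0.45 in ES and -6.04 ± 0.70 in HS (SD, n = 5 each). These values have no order, and Myf5 was not tested. The other 5 members entered the fit of 15719 genes. In bulk muscle, fewer cells of a type and less RNA per cell cannot be told apart.

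**Figure D1:**
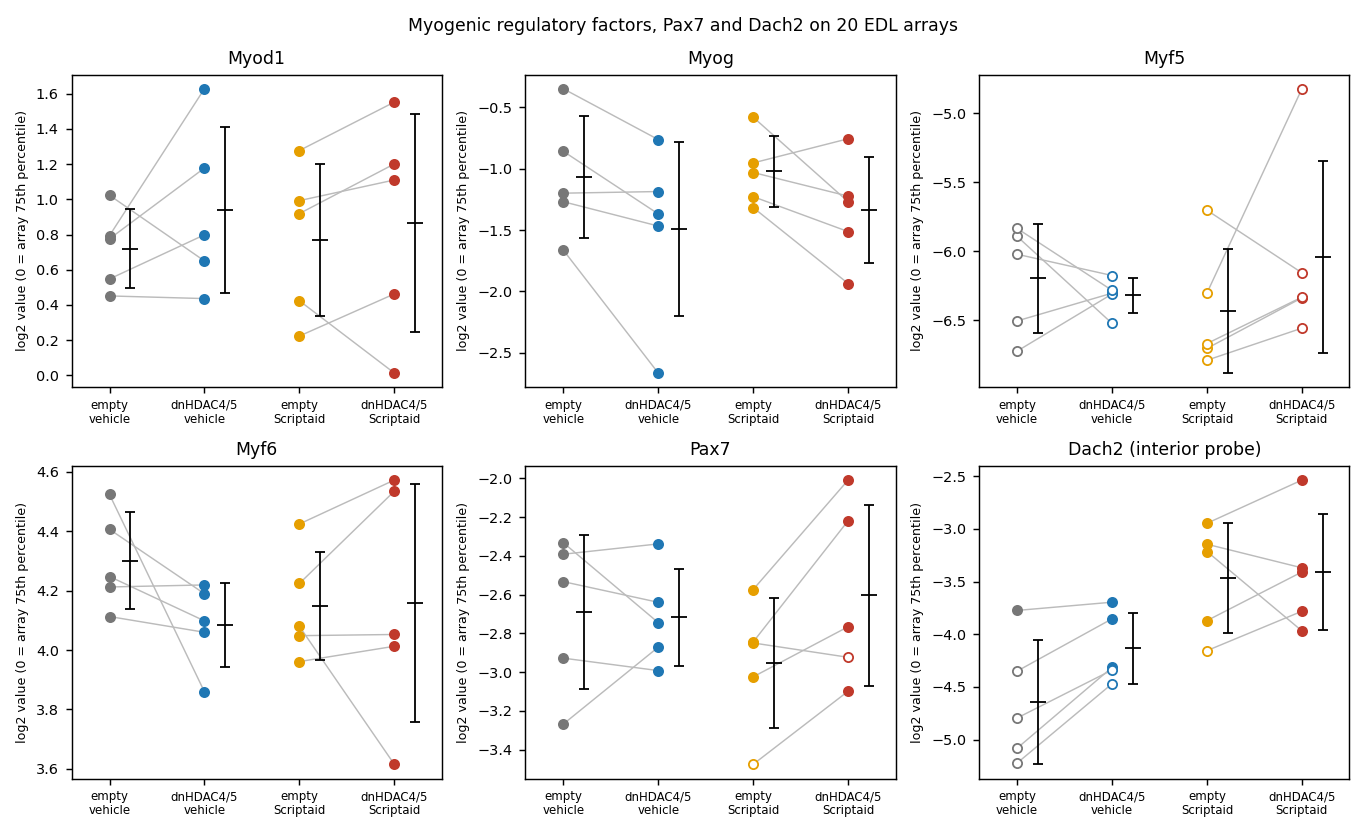
Level (log2 intensity relative to the array's 75th percentile) of each member in the 20 muscles. Dach2 is shown by its interior probe, not by the top-edge probe that represents the gene in the fit. Points are arrays (open where not well above background), lines join the legs of an animal, and bars are group means with SD. Myod1, Myog, Myf6 and Pax7 overlap among all 4 groups, and the Myf5 points are all at background.

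None of the 5 tested members passed an adjusted p of 0.05 in any of 8 comparisons fitted with limma. The share of all genes called was 0.0% for the vector in vehicle animals, 1.24% for the vector in Scriptaid animals, 0.0% for Scriptaid in empty-vector legs, 1.29% for Scriptaid in dnHDAC4/5 legs, 2.39% for both treatments against neither, 1.09% for the vector averaged over both injections, 0.178% for the interaction and 0.184% for Scriptaid on the mean of each animal's legs. At an unadjusted p under 0.05, Dach2 alone passed, in the vector comparison of Scriptaid animals and in the interaction, in each case through its top-edge probe. The share of all genes past that unadjusted threshold was 4.64%, 11.7%, 3.84%, 10.6%, 15.4%, 12.2%, 4.07% and 6.99% in the same order of comparisons.

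Myod1, the lineage factor MyoD, had similar means in all groups. Its levels were 0.78, 0.79, 1.02, 0.55 and 0.45 in EV 1 to 5, and 1.18, 1.63, 0.65, 0.80 and 0.44 in HV 1 to 5. In the Scriptaid animals they were 0.92, 0.42, 0.22, 1.28 and 0.99 in ES, and 1.20, 0.01, 0.46, 1.55 and 1.11 in HS. HV 2 and HS 4 were the highest and HS 2 the lowest, and every pair of groups overlapped. The means, in falling order, were 0.94 ± 0.47 in HV, 0.87 ± 0.62 in HS, 0.77 ± 0.43 in ES and 0.72 ± 0.22 in EV (SD, n = 5), and no neighbours in that order differed by more than their SD. The dnHDAC4/5 leg was the higher in 7 of 10 animals, by a mean of 0.16 (SD 0.36, from -0.41 to 0.83). In the fit the averaged vector difference was 0.16, with a 95% interval from -0.25 to 0.57 (limma, adjusted p = 0.826). The Scriptaid difference on the mean of an animal's legs was -0.01, with an interval from -0.54 to 0.52, and took the other sign under 4 of the alternative settings.

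Myog, the differentiation factor myogenin, had the lower level in the dnHDAC4/5 leg in 8 of 10 animals. Its levels were -0.86, -1.27, -0.35, -1.66 and -1.20 in EV 1 to 5, and -1.37, -1.47, -0.76, -2.66 and -1.19 in HV 1 to 5. In the Scriptaid animals they were -1.23, -1.32, -0.95, -0.58 and -1.03 in ES, and -1.51, -1.94, -0.76, -1.27 and -1.22 in HS. HV 4 was the lowest muscle and its left leg, EV 4, the lowest of the empty-vector legs. All groups overlapped. No member's probe separated the arrays of any 2 groups compared, against 0.725% of all probes for the vector in vehicle animals, 3.41% for the vector in Scriptaid animals, 0.979% for Scriptaid in empty-vector legs, 2.41% for Scriptaid in dnHDAC4/5 legs and 3.63% for both treatments against neither.

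The means of Myog were -1.02 ± 0.29 in ES, -1.07 ± 0.49 in EV, -1.34 ± 0.43 in HS and -1.49 ± 0.71 in HV (SD, n = 5), and neighbours in that order differed by less than their SD. Within animals, the right leg minus the left averaged -0.37 (SD 0.35, from -1.0 to 0.20). It averaged -0.42 in vehicle animals and -0.32 in Scriptaid animals, and the right leg was the lower in 4 of 5 animals in each. The averaged vector difference was -0.37 (SE 0.21, 95% interval from -0.82 to 0.08), a ratio of 0.774, and did not pass (limma, adjusted p = 0.535). With the animal as a block the same difference had an SE of 0.11 and an interval from -0.62 to -0.12 (limma, unadjusted p = 0.008, adjusted p = 0.126). In that fit 2774 of 15719 genes had an unadjusted p under 0.05, and 267 were called. The difference was negative in each of 13 alternative settings and in each of 20 fits that left out 1 array, from -0.46 to -0.22. Scriptaid's difference on the mean of an animal's legs was 0.10, with an interval from -0.49 to 0.69, and it was negative (-0.07) under another background correction, normexp.

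The repeated spots show how much of the spread was within an array. Spots flagged as non-uniform or as outliers were left out first, 11 of 200 for Myod1, 24 for Myog and 10 for Myf5. The spread within an array does not include them. The median SD among the spots of 1 array was 0.09 for Myod1 and 0.11 for Myog, against 0.45 and 0.46 between the arrays of a group. Single arrays could spread more, since the SD among the Myog spots of HS 5 was 1.58, and 0.51 among its interior spots. For Myf5, at background, the figures were 0.44 within and 0.42 between arrays. Myog has 1 edge spot, kept on 4 arrays. In HS 5 it read -5.50, and the array's Myog level was -1.22 with it and -0.75 without it. Without edge spots the averaged vector difference of Myog was -0.31 (limma, adjusted p = 0.687, and 0.220 with the animal as a block), with 0.594% of genes called.

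**Figure D2:**
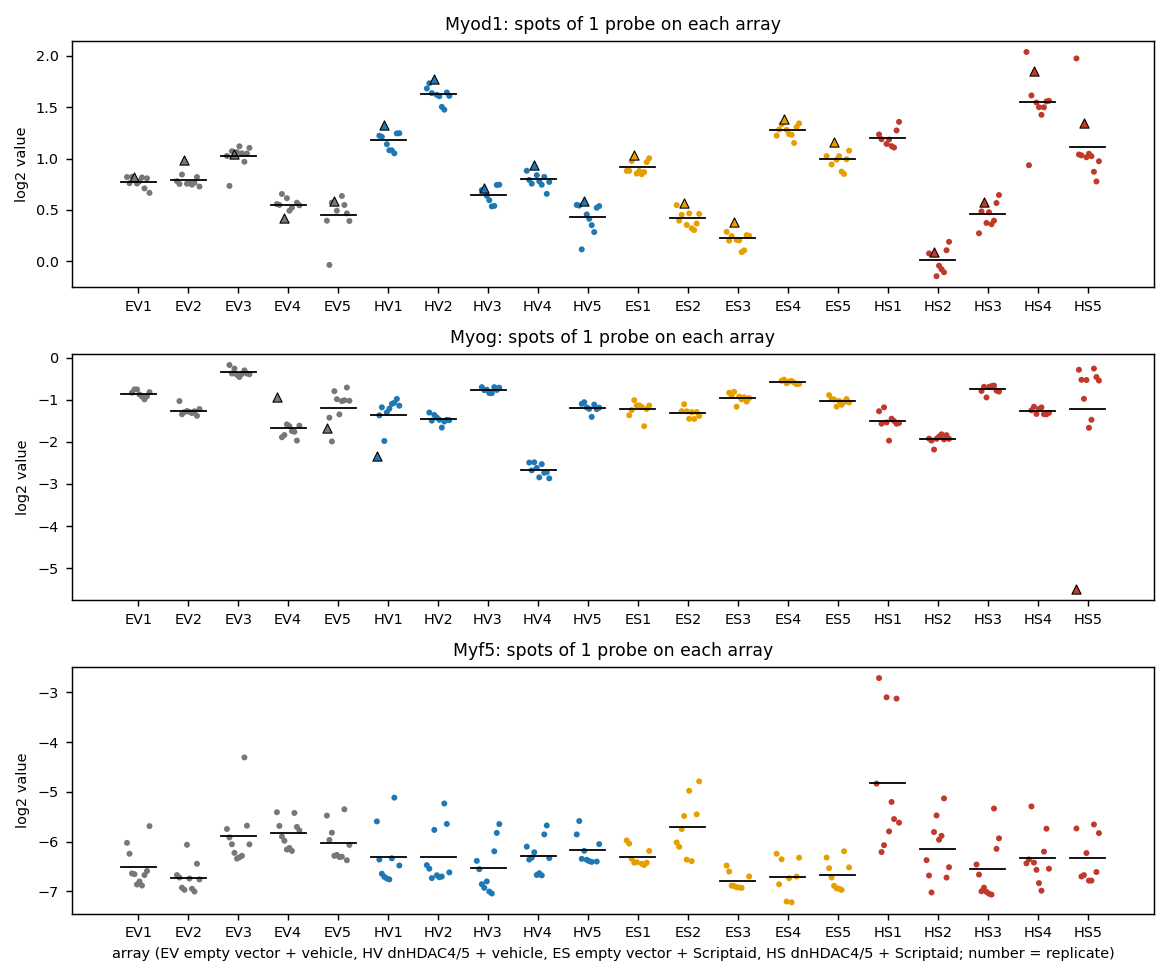
Level of each spot that was not flagged (log2 intensity relative to the array's 75th percentile) of the Myod1, Myog and Myf5 probes on the 20 arrays. Triangles are edge spots and bars are array means. Spots of 1 array lie close together for Myod1 and Myog, and the Myog edge spot of HS 5 lies at -5.50, far below the others.

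Myf6, the factor retained by adult fibres, differed little between groups. Its levels were 4.25, 4.52, 4.41, 4.21 and 4.11 in EV 1 to 5, and 4.10, 3.86, 4.19, 4.22 and 4.06 in HV 1 to 5. In the Scriptaid animals they were 4.05, 4.08, 4.22, 3.96 and 4.42 in ES, and 4.05, 3.62, 4.53, 4.01 and 4.57 in HS. HS held both the lowest and the highest muscle, and all groups overlapped. The means were 4.30 ± 0.16 in EV, 4.16 ± 0.40 in HS, 4.15 ± 0.18 in ES and 4.09 ± 0.14 in HV (SD, n = 5), and no neighbours differed by more than their SD. The right leg was the higher in 1 of 5 vehicle animals and in 4 of 5 Scriptaid animals. The averaged vector difference of Myf6 was -0.10, with an interval from -0.34 to 0.13 (limma, adjusted p = 0.796), and was positive (0.14) under normexp. The Scriptaid difference on the mean of an animal's legs was -0.04 (-0.34 to 0.26), and was positive (0.23) under normexp.

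Pax7, the satellite cell factor, was well above background on 18 of 20 arrays. Its levels were -3.27, -2.93, -2.39, -2.53 and -2.33 in EV 1 to 5, and -2.87, -2.99, -2.34, -2.64 and -2.74 in HV 1 to 5. In the Scriptaid animals they were -2.85, -3.48, -3.02, -2.84 and -2.57 in ES, and -2.92, -3.10, -2.77, -2.22 and -2.01 in HS. ES 2 was the lowest and HS 5 the highest, and the groups overlapped. The means were -2.60 ± 0.47 in HS, -2.69 ± 0.40 in EV, -2.72 ± 0.25 in HV and -2.95 ± 0.33 in ES (SD, n = 5), with no neighbours apart by more than their SD.

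The dnHDAC4/5 leg had the higher Pax7 level in 4 of 5 Scriptaid animals, by a mean of 0.35 (SD 0.28, from -0.07 to 0.63). That difference did not pass (limma, adjusted p = 0.626), nor did it with the animal as a block (interval from 0.06 to 0.64, adjusted p = 0.211), and it was -0.05 under normexp. In the fit with that block 2656 of 15719 genes had an unadjusted p under 0.05, and 248 were called. Averaged over both injections the vector difference of Pax7 was 0.16 (-0.18 to 0.50), and -0.36 under normexp. With both treatments against neither it was 0.09 (-0.39 to 0.57, limma, adjusted p = 0.898), whereas under normexp it was -0.94 and passed (adjusted p = 0.0495). Normexp was run with an added offset of 50 intensity units, and the mean intensity of Pax7 was 67.5 in EV and 70.9 in HS.

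Dach2, the corepressor of Myog, had a low signal in all groups, and its edge probes and interior probe gave different values. The probe that represents the gene in the fit, A_51_P126167, lies in the top edge and was well above background on 15 arrays. Its levels were -3.15, -3.20, -1.84, -3.10 and -3.95 in EV 1 to 5, and -3.31, -3.21, -1.18, -2.59 and -2.32 in HV 1 to 5. In the Scriptaid animals they were -1.74, -2.91, -3.02, -1.70 and -1.60 in ES, and -4.01, -3.21, -2.06, -5.83 and -3.45 in HS. HS 4 was the lowest muscle and HV 3 the highest. In Scriptaid animals the vector difference of this probe was -1.52 (SE 0.57, limma, unadjusted p = 0.016, adjusted p = 0.251). HS is the group with the larger share of low edge spots, and whether this bears on the top-edge probe was not tested. Leaving out edge spots does not correct that probe but replaces it by the interior probe. The difference of Dach2 was then 0.05, with 0.347% of genes called. The right-edge probe, A_51_P423911, was well above background on 13 arrays and had means of -3.60 ± 0.74 in EV, -3.64 ± 0.90 in HV, -3.07 ± 0.82 in ES and -3.77 ± 1.38 in HS (SD, n = 5), so that all groups lay within their SD of each other.

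The interior Dach2 probe, A_52_P247559, was well above background on 1 EV, 3 HV, 4 ES and 5 HS arrays. Its levels were -5.08, -5.22, -3.77, -4.80 and -4.35 in EV 1 to 5, and -4.31, -4.47, -3.70, -4.34 and -3.85 in HV 1 to 5. In the Scriptaid animals they were -2.95, -4.16, -3.22, -3.87 and -3.15 in ES, and -2.54, -3.78, -3.97, -3.41 and -3.37 in HS. EV held the lowest muscles, HS 1 was the highest, and EV 3 was the muscle that made EV overlap with ES and with HS. The means were -3.41 ± 0.55 in HS, -3.47 ± 0.52 in ES, -4.14 ± 0.34 in HV and -4.65 ± 0.59 in EV (SD, n = 5). HS and ES differed by less than their SD, and the step from ES to HV was larger than the SD of either group.

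**Figure D3:**
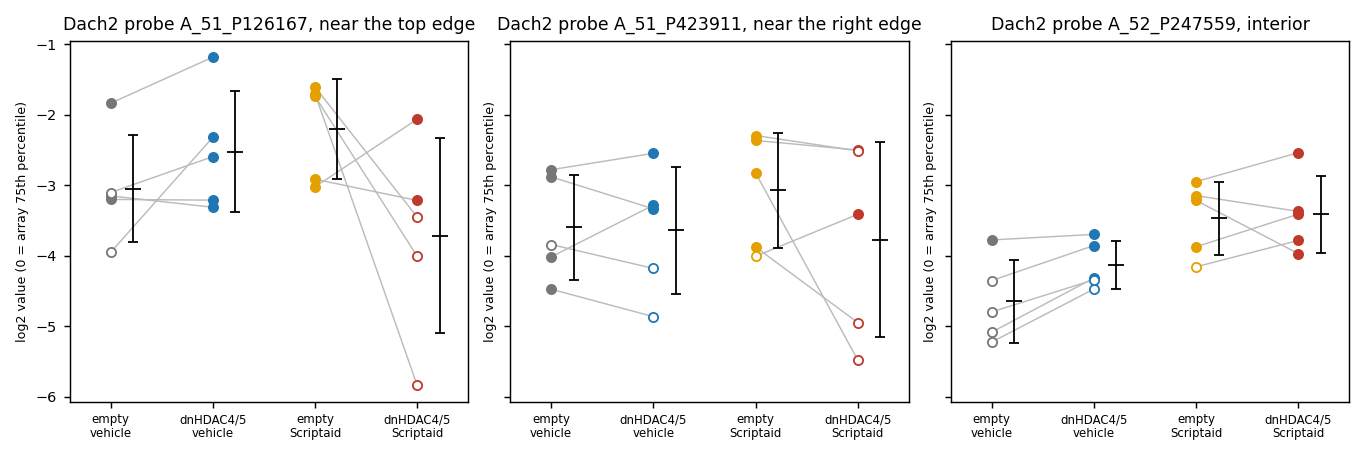
Level (log2 intensity relative to the array's 75th percentile) of the 3 Dach2 probes in the 4 groups, 5 arrays each. Filled points were well above background, open points were not, lines join the legs of an animal, and bars are means with SD. The interior probe is highest in the Scriptaid groups, while the lowest values of both edge probes are in HS, down to -5.83 for the top-edge probe.

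Tested on its own among 23596 probes, the interior Dach2 probe was higher in muscles with both treatments than in those with neither, by 1.23 (SE 0.31, 95% interval 0.59 to 1.87, a ratio of 2.35, limma, adjusted p = 0.0382, with 2.49% of probes called), but by -0.44 (adjusted p = 0.304) under normexp, which turned the direction. As the gene's value in the fit without edge spots, the same difference gave an adjusted p of 0.055 (limma), with 1.19% of genes called. The call was also lost when arrays were scaled by their medians (1.30, adjusted p = 0.0634) or by quantiles (1.26, adjusted p = 0.0649), and without EV 1, EV 2, EV 4, HS 1, HS 4 or HS 5, where the adjusted p reached 0.107. With the slide as a block it was 0.0192. EV was not well above background on 4 of 5 arrays of this probe, so the size of the difference rests on values near background. The normexp offset of 50 intensity units was larger than the mean intensities of this probe, 17.8 in EV and 37.4 in HS.

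The separate comparisons of the interior probe did not pass. The share of probes called was 0.0% for the vector in vehicle animals and for Scriptaid in empty-vector legs, 1.34% for Scriptaid in dnHDAC4/5 legs and 0.157% on the mean of an animal's legs. Scriptaid's difference was 1.18 (0.54 to 1.82) in empty-vector legs (limma, unadjusted p = 0.0011, adjusted p = 0.808) and 0.72 in dnHDAC4/5 legs (adjusted p = 0.380). On the mean of an animal's legs it was 0.95 (0.37 to 1.53, adjusted p = 0.360), and -0.18 under normexp. The dnHDAC4/5 leg was higher in 5 of 5 vehicle animals, by 0.08 to 0.77, and in 3 of 5 Scriptaid animals, from -0.75 to 0.46. The vector difference in vehicle animals was 0.51 (adjusted p = 0.506 with the animal as a block), and -0.66 under normexp. Over the 20 arrays, the interior and the top-edge probe had a correlation of 0.06, the interior and the right-edge probe of 0.36, and the edge probes of 0.54, given as a description of probes that share their arrays. Both edge probes were lower in the right leg of 4 of 5 Scriptaid animals, by means of -1.52 and -0.70.

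**Figure D4:**
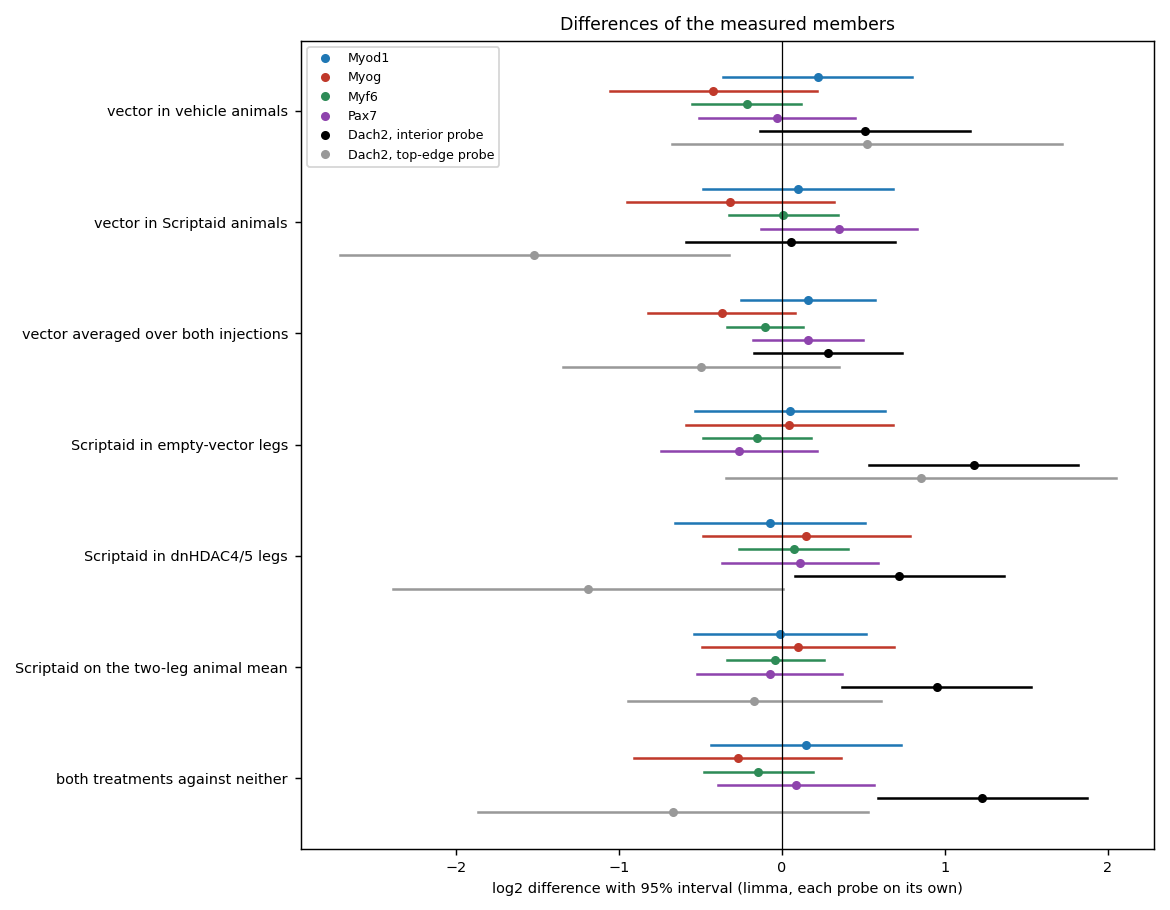
Log2 differences (x axis) of the 4 other tested members and of the interior and top-edge Dach2 probes in 7 comparisons, with 95% intervals from limma fitted to each probe. The intervals of Myod1, Myog, Myf6 and Pax7 cross 0 in all comparisons, and the Dach2 probes lie on opposite sides of 0 wherever HS enters against ES, HV or EV.

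Other genes of the pathway were taken as 6 lists of 105 genes, of which 100 were tested. Partners and antagonists of the factors, such as E proteins, Id proteins and MEF2 genes, had no call among 27 tested for the averaged vector effect, with a median of 0.07 against 0.02 over all genes. In that comparison 1.09% of all genes were called and 53.6% were higher in value, against which the counts of the following lists are to be read. In Scriptaid animals 1 of the 27 fell in the dnHDAC4/5 leg, Bhlhe40, a circadian repressor, by 2.95 (SE 0.68, limma, adjusted p = 0.0409, 0.061 with the animal as a block). With Scriptaid in dnHDAC4/5 legs it fell by 3.20 (adjusted p = 0.0232). Its probe is an edge probe, and its HS value of -1.20 ± 2.31 rests on 4 arrays. With both treatments against neither, 4 of the 27 were called, against 2.39% of all genes. The 2 lower ones were Bhlhe40 and Bhlhe41, both read by edge probes, and the 2 higher ones were Mef2d (0.81, adjusted p = 0.0406, 0.056 without edge spots) and Hes1, a Notch-induced repressor, all named after their values were seen. Hes1 rose by 1.06 (SE 0.25) in that comparison (limma, adjusted p = 0.0317, 0.047 without edge spots), but the difference was -0.38 under normexp. Its call was lost without EV 1, EV 2, EV 4, HS 1, HS 3, HS 4 or HS 5, where the adjusted p reached 0.0854. None of the next 4 genes, homeodomain factors and their cofactors, was called. Six2 had a vector difference of -1.13 (SE 0.39, limma, adjusted p = 0.185) and the lower value in the right leg of 10 of 10 animals. The homeodomain factor Six4 had a vector difference of 0.25 (adjusted p = 0.515) and a Scriptaid difference on the mean of an animal's legs of 0.48 (adjusted p = 0.567). Eya4, a coactivator of such factors, had a vector difference of 0.27 (adjusted p = 0.522). Dach1, the paralogue of Dach2 and read here by an edge probe, had a Scriptaid difference of -0.79 on the mean of an animal's legs (adjusted p = 0.731).

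Genes known to respond to denervation or to lie at the neuromuscular junction, many of them Myog targets, had 2 of 16 called higher for the averaged vector effect, 10 of 16 higher in value, near the share over all genes, and a median of 0.19. Without edge spots none of the list was called. Gadd45a, a stress-response gene induced by denervation, rose by 1.16 (SE 0.27, limma, adjusted p = 0.0418). Its levels were 1.80 ± 0.26 in EV, 2.92 ± 0.80 in HV, 2.02 ± 0.20 in ES and 3.23 ± 0.93 in HS (SD, n = 5), and the right leg was higher in 10 of 10 animals. Without edge spots its adjusted p was 0.053, and it stayed below 0.05 in the fits that left out HV 3, HV 5, HS 2, HS 3 or HS 4 and in none of the other 15, reaching 0.0863.

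Chrng, the embryonic subunit of the acetylcholine receptor, rose by 0.85 (SE 0.20, limma, adjusted p = 0.0463, 0.057 without edge spots) by its representative probe, with the right leg higher in 10 of 10 animals, while its second interior probe had a difference of -1.20 (SE 0.35, adjusted p = 0.102) and the mean of the probes -0.18. The representative probe's levels were -3.98 ± 0.41 in EV, -3.27 ± 0.64 in HV, -3.68 ± 0.19 in ES and -2.69 ± 0.51 in HS (SD, n = 5), and it was well above background on 2 of 5 EV arrays. Under normexp the difference was -0.0025. The call stayed without EV 5, HV 3, HV 5, HS 2 or HS 3 and was lost without each of the other 15 arrays, where the adjusted p reached 0.0900. The direction of Chrng is therefore not settled by these probes. Chrnb1, another receptor subunit, fell by 2.76 (SE 0.65) with Scriptaid in dnHDAC4/5 legs (limma, adjusted p = 0.0427) by an edge probe with 4 HV arrays, and the call was lost in 17 of 20 fits that left out 1 array.

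Satellite cell markers had 1 of 16 called for the averaged vector effect, 5 of 16 higher in value and a median of -0.15. Without edge spots 6 of 14 were higher, with a median of -0.05. Cd82, a membrane protein of satellite cells that other cells carry too, rose by 1.46 (SE 0.30, limma, adjusted p = 0.0260). Its levels were 0.65 ± 0.40 in EV, 1.94 ± 0.91 in HV, 0.21 ± 0.18 in ES and 1.84 ± 1.02 in HS (SD, n = 5), with the right leg higher in 10 of 10 animals. Its adjusted p was 0.040 without edge spots, and the call was lost without HV 1, HV 2, ES 2 or HS 5, where it reached 0.0551. Sdc4, a syndecan read by an edge probe, fell by 3.11 (SE 0.75) in the dnHDAC4/5 legs of Scriptaid animals (limma, adjusted p = 0.0477, 0.130 with the animal as a block) and differed by 0.17 in the deposited value table. It fell by 3.52 with Scriptaid in dnHDAC4/5 legs (adjusted p = 0.0198) and by 1.91 on the mean of an animal's legs (adjusted p = 0.0222), and these differences were 0.03 and 0.15 in the deposited table.

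Differentiation and regeneration genes had 1 of 12 tested called for the averaged vector effect and a median of -0.19. The separate vector comparisons had 7 of 12 higher each, with medians of 0.03 in vehicle and 0.17 in Scriptaid animals. Cdkn1c, which encodes the cell-cycle inhibitor p57, rose by 0.77 (SE 0.17, limma, adjusted p = 0.0294, 0.043 without edge spots, 0.0654 with the animal as a block). Its levels were 2.80 ± 0.25 in EV, 3.35 ± 0.55 in HV, 2.66 ± 0.19 in ES and 3.66 ± 0.43 in HS (SD, n = 5), and the right leg was higher in 9 of 10 animals. The call was lost without EV 2, EV 4, HV 2, ES 1, ES 4, ES 5, HS 4 or HS 5, where the adjusted p reached 0.0627. In Scriptaid animals alone Cdkn1c rose by 1.00 (SE 0.24, adjusted p = 0.0418, 0.081 without edge spots and 0.091 with the animal as a block), a call kept in 7 of 20 fits that left out 1 array. Myh3, the embryonic myosin, was higher with Scriptaid in dnHDAC4/5 legs by 1.09 (SE 0.26, limma, adjusted p = 0.0441, 0.078 without edge spots). Its levels were -0.87 ± 0.30 in EV, -2.28 ± 0.51 in HV, -1.53 ± 0.26 in ES and -1.19 ± 0.57 in HS (SD, n = 5), so that HV was the lowest group and HS lay between EV and ES. The Myh3 call stayed without EV 1, EV 4, HV 3, HS 3 or HS 4 and was lost without each of the other 15 arrays, where the adjusted p reached 0.127.

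Adult fast muscle genes had 11 of 14 tested higher in value, a median of 0.085 and 1 call, lower, for the averaged vector effect. That call was Casq1, the calcium store protein of fast fibres, at -5.10 by an edge probe, and without edge spots none of the list was called. The difference came from HS, where Casq1 had a mean of -3.98 over 3 arrays, 1 of them well above background, against 5.91 in EV, 5.74 in HV and 6.05 in ES. It was also called lower with the vector in Scriptaid animals and with Scriptaid in dnHDAC4/5 legs, with sizes that rest on HS values at background. Among genes named after their values were seen, Fbxo32, the ubiquitin ligase atrogin-1 and a gene of the denervation list, rose by 1.02 (SE 0.16) with both treatments against neither (limma, adjusted p = 0.0030, 0.0086 without edge spots). Its means were 3.32 in EV, 3.79 in HV, 3.84 in ES and 4.35 in HS, with 3 HV and 4 ES arrays, and the call held in 20 of 20 fits that left out 1 array.

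**Figure D5:**
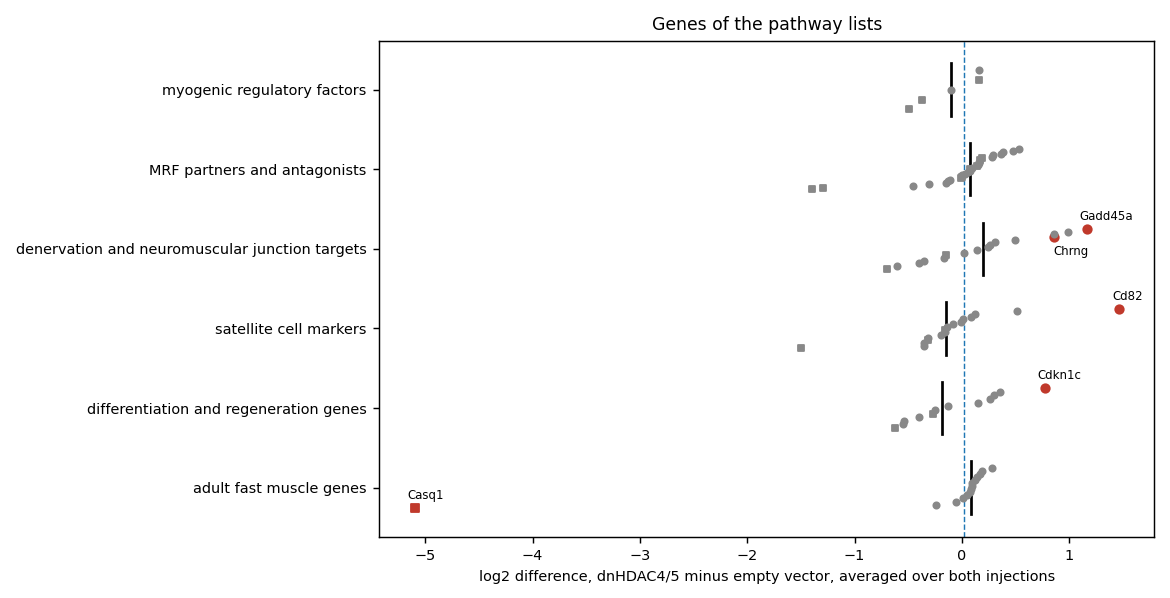
Averaged vector difference (x axis, log2, dnHDAC4/5 minus empty vector) of each tested gene in 5 of the pathway lists and of the members. Squares are genes read by edge probes, red marks an adjusted p under 0.05, black bars are list medians and the dashed line is the median of all genes, 0.02. The called genes Gadd45a, Chrng, Cd82 and Cdkn1c lie above 0 (Chrng by its representative probe), and Casq1, an edge probe, lies at -5.10.

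Marker lists of other cells were set beside these results, and 2 of their genes were called for the averaged vector effect, both lower and by edge probes. Several lists had opposite directions in the group means of the vehicle and the Scriptaid animals, and counts of animals did not always follow these means. Of 5 adipocyte markers 1 was higher with the vector in vehicle animals (median -0.50) and 5 in Scriptaid animals (median 1.94). By animal, Adipoq, Cidec, Cfd and Plin1 were each higher in the right leg of 3 of 5 vehicle animals, and Fabp4 in 2. The leg differences of Adipoq in vehicle animals ran from -5.23 to 2.61. Of 6 slow fibre markers none was higher in vehicle animals (median -1.50) and 6 were in Scriptaid animals (median 0.52). Of 3 red blood cell markers none was higher in vehicle animals (median -0.72) and 3 were in Scriptaid animals (median 0.54). By animal, Hbb-b1 and Slc4a1 were higher in the right leg of 2 of 5 Scriptaid animals, and Alas2 in 3. Schwann cell markers had 0 of 6 higher (median -0.84) and 3 of 6 higher (median 0.04). Macrophage markers had 6 of 7 higher in each, with medians of 0.17 and 0.30, and fibroblast markers 4 of 6 and 6 of 6 (medians 0.10 and 0.23). Endothelial markers had 3 of 6 and 0 of 6 higher (medians -0.01 and -0.18), and fast fibre markers 5 of 5 and 4 of 5 (medians 0.12 and 0.05). In the summed levels of a list, slow fibre markers ranged from 6.69 to 7.64 in EV, 1.98 to 7.53 in HV, 6.69 to 7.37 in ES and 2.29 to 7.71 in HS, so that some right legs had far lower values than any left leg. The median of the summed slow fibre levels was 7.25 in ES and 6.71 in HS. Adipocyte markers ranged from 6.42 to 7.35 in EV, 6.55 to 7.14 in HV, 6.16 to 7.57 in ES and 6.77 to 8.04 in HS. This sum does not show the spread of its single genes. The leg differences of Plin1 ran from -6.63 to 2.25 in vehicle and from -1.03 to 6.22 in Scriptaid animals. Those of Fabp4 ran from -0.19 to 0.54 and from -0.08 to 0.62. Macrophage markers ranged from 2.10 to 3.65 in EV, 2.45 to 3.63 in HV, 2.29 to 3.64 in ES and 2.52 to 4.05 in HS, and Schwann cell markers from 2.95 to 4.08, 1.16 to 4.02, 2.85 to 3.82 and 3.09 to 4.45. The part of other cells in the values of Myog, Pax7, Cd82 and the other genes was not tested.

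Over the 20 arrays, with each gene read by its representative probe, the largest correlations among the members were 0.37 between Myf6 and Pax7, 0.34 between Myog and the top-edge Dach2 probe (Spearman's rho 0.55) and 0.33 between Myog and Myf6 (rho 0.39). The other pairs of members, with Dach2 read by its top-edge or interior probe, lay between -0.24 and 0.28. With the right-edge Dach2 probe they ran from -0.41 (Myod1) to 0.36 (Myog). The genes most like each member over the 20 arrays, of 10169 genes well above background on all of them, were Srxn1 for Myod1 (Pearson r = 0.81), Cflar for Myog (r = 0.87), Prkcq for Myf6 (r = 0.70) and Ttc27 for Pax7 (r = 0.82). The next were Dll1 for Myod1 (r = 0.79, an edge probe), 2310001K24Rik for Myog (r = 0.83), Srpk2 for Myf6 (r = 0.68) and Tbc1d13 for Pax7 (r = 0.80). The last named were Lrfn3 for Myod1 (r = 0.77), Entpd1 for Myog (r = 0.83), Nsmce2 for Myf6 (r = 0.67, an edge probe) and Sdf2 for Pax7 (r = 0.77). The top-edge Dach2 probe was most like Rnpep (r = 0.77), BC017612 (r = 0.77, an edge probe) and Man1a (r = 0.72). These correlations describe muscles that share animals and slides.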

How the data were processed

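Deposited Agilent scanner files (Feature Extraction 9.5.1.1, per the submitters' processing notes) gave the processed intensity of 45018 spots per array, background-subtracted by the authors' scanner software. The deposited value table, used as an alternative, held a ratio per probe: the processed intensity divided by 1 constant per array. Control and flagged spots (12539) were left out, and log2 intensity minus the array's 75th percentile was averaged per probe. Probes well above background on 5 or more arrays, with 3 or more arrays per group, were kept (23596). The probe with the highest mean represented each of 15719 genes. Group means were fitted with limma 3.58.1 in R 4.3.3 and p-values adjusted by Benjamini-Hochberg over the genes tested. The fit was tested on simulated data. The members and lists were chosen with earlier results of these data known. Edge spots are the outer 3 columns and 8 rows on each side, set after the low spots were seen. The text names the members, every called gene of the lists in the vector and Scriptaid comparisons or, in a list without one, those of smallest p, and the 3 genes most like each member. Same-numbered legs are of the same animal, per the labels. Their deviations from the group means correlated at 0.20 to 0.41 in 9 animals and at 0.03 in vehicle animal 1. For vehicle animal 1 the highest correlation with another animal was 0.22, above that of its own legs. Its pairing therefore rests on the labels alone. Each of 5 slides held 1 array of each group. Settings tried were the background correction, scaling, spot filters, edge spots, probe choice, the value table, blocks for the animal and the slide, and leaving out each array. For the mean of an animal's legs, each animal was left out instead. Array number limits the precision. The summary of 1 list, of homeodomain factors and cofactors, is not reported here. Figures were drawn in Python 3.11.15.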

Additional observations from a re-analysis of the deposited data

Results flagged for a closer look

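Of 32 groups of 5 arrays, formed by the members' probes, 1 held a muscle far from the others. The Myf5 level of HS replicate 1 was -4.82, against -6.56 to -6.16 in the other HS muscles, and its gap to the nearest of them was 0.769 of the group's range. None of the 20 Myf5 values counted as well above background, though 3 of the 10 Myf5 spots of HS replicate 1 did. The spots of that array ranged from -6.21 to -2.71. Chance sets apart about 1 group in 20.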

How the results depend on the processing

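Of 40 results of single members, 9 kept their direction under every alternative. Animal blocks called no member, 0 in all 4 vector comparisons. Of all 15719 genes they called 0 for the vector in vehicle animals, 248 in Scriptaid animals, 267 on average and 20 for the interaction. Beside the calls named in the report, blocks for the animal gained Chrng in Scriptaid animals (adjusted p = 0.0404) and Cdh15 on average (adjusted p = 0.0473), and changed no other call of a listed gene. For both treatments against neither, 1 member was called under normexp (Pax7, -0.94, adjusted p = 0.0495) and 1 with edge spots out and the slide as a block (Dach2, 1.23). In these settings 1441 of 15719 genes and 458 of 14984 genes were called, in the same order. The cause of these changes was not tested.

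Normexp was run with an offset of 50 intensity units. It moved the count of genes at an unadjusted p under 0.05 (limma) in both directions. For Scriptaid in empty-vector legs the count was 5769, against 603 in the main fit. For the vector in Scriptaid animals it was 1029, against 1837. Under normexp, these differences turned sign. Myod1 was 0.024 for Scriptaid in dnHDAC4/5 legs and 0.11 on the mean of an animal's legs. Myog was -0.29 in empty-vector legs and -0.070 on that mean. Myf6 was 0.18 (vector in vehicle animals), 0.28 (Scriptaid in empty-vector legs), 0.37 (both treatments), 0.14 (vector average), -0.091 (interaction) and 0.23 (mean of legs). Pax7 was -0.047 (vector in Scriptaid animals), -0.27 (Scriptaid in dnHDAC4/5 legs), -0.94 (both) and -0.36 (vector average). Dach2 was -0.42 (vector in vehicle animals) and -0.43 (Scriptaid in empty-vector legs). Its interior probe was -0.66 and -0.58 there, -0.44 (both), -0.25 (vector average), 0.80 (interaction) and -0.18 (mean of legs). Chrng was -0.27 (both) and -0.0025 (vector average), and Hes1 was -0.38 (both). Group means moved beyond their SD for 2 of 20.

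Median scaling turned Myod1 on the mean of legs (0.028) and Pax7 in vehicle animals (0.010). Quantiles turned Myf6 in Scriptaid animals (-0.051) and Pax7 in vehicle animals (0.017). Keeping flagged spots turned Myod1 on the mean of legs (0.018) and Myog for Scriptaid in empty-vector legs (-0.045). The deposited table turned Myod1 on the mean of legs (0.00072), Myf6 in Scriptaid animals (-0.050), Pax7 in vehicle animals (0.11) and on the mean of legs (0.068), and Sdc4 (0.17, 0.026 and 0.15). The mean of probes turned Dach2 (both 0.13, mean of legs 0.33) and Chrng (both -0.039, vector average -0.18). Without edge spots, with or without blocks, or with the interior probe alone, Dach2 was 0.054 (vector in Scriptaid animals), 0.72 (Scriptaid in dnHDAC4/5 legs), 1.23 (both), 0.28 (vector average) and 0.95 (mean of legs). Probe A_51_P423911 alone gave -0.043 (vector in vehicle animals) and 0.20 (mean of legs).

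Leaving out 1 animal, with both its arrays, the mean of legs ranged from -0.28 to 0.15 for Dach2, -0.13 to 0.036 for Myf6, -0.16 to 0.14 for Myod1, -0.12 to 0.28 for Myog and -0.20 to 0.053 for Pax7. The other comparisons were refitted leaving out 1 array. Scriptaid in dnHDAC4/5 legs ranged from -0.031 to 0.21 for Myf6, -0.24 to 0.14 for Myod1, -0.14 to 0.33 for Myog and -0.034 to 0.24 for Pax7, and in empty-vector legs from -0.079 to 0.18 for Myod1 and -0.10 to 0.23 for Myog. The vector in Scriptaid animals ranged from -0.094 to 0.15 for Myf6, -0.071 to 0.31 for Myod1 and -0.17 to 0.19 for the interior Dach2 probe, and in vehicle animals from -0.17 to 0.063 for Pax7. Both treatments ranged from -0.022 to 0.36 for Myod1 and -0.061 to 0.21 for Pax7. The interaction ranged from -0.29 to 0.094 for Myod1 and -0.19 to 0.29 for Myog.

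Counts of calls over all genes moved more than 1.5 times in these cases. The vector average had 172 calls, 83 under median scaling, 89 without edge spots, 72 with no filter on dim probes, 267 with the animal as a block and 390 with the slide as a block (282 without edge spots). The vector in Scriptaid animals had 195, and 125, 52 and 322 under the 3 first named, 340 with the slide block, 98 with the animal block without edge spots and 71 in the deposited table. Scriptaid in dnHDAC4/5 legs had 202, 128 under median scaling, 63 without edge spots, 362 with the slide block and 89 in the deposited table. Both treatments had 376, 229 under median scaling, 178 without edge spots, 242 with no filter, 640 with the slide block and 1441 under normexp. The interaction had 28, 83 under normexp, 3 in the deposited table and 0 without edge spots. The mean of legs had 29, 70 under normexp, 14 with no filter, 6 with the slide block, and 0 without edge spots and in the deposited table. Scriptaid in empty-vector legs had 0, and 1 with no filter. Median scaling moved the median of all genes to 0.109 for both treatments, from 0.043, and normexp to -0.061.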
